A study of Mus musculus with 6 samples.

Results

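RNA of fluorescent pituitary cells sorted from Tshbcre mice at postnatal day 7 (P7) was set against RNA of whole nontransgenic glands of the same age, gene by gene. Per gene, the FPKM values were added up over all annotated transcripts that carry its name. FPKM is a read density that corrects for transcript length and for the size of the library. Genes listed in both tables numbered 50057, of 50348 in the whole series. The P7 Tshbcre sorted library came from 5 pooled glands of mice that carry Tshbcre, a Cre recombinase driver named for Tshb, together with ROSAYFP, a YFP reporter that Cre switches on. Its cells were dispersed with collagenase and the GFP-positive fraction was collected by FACS. The P7 whole library came from 8 nontransgenic glands and is labelled as all pituitary cells. The groups thus differ in genotype as well as in sorting, and the labels give the same dispersal and sorting text for both. Sex and strain are not given in the sources used here. Values of 2 further libraries are placed beside the P7 values where useful: adult Tshbcre sorted cells (42 pooled glands, 7 weeks) and an adult nontransgenic whole gland (1 gland). Each group was 1 library, so no difference has a replicate check or a test.

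Thyrotropes are the anterior pituitary cells that make thyrotropin, a hormone built of a common alpha subunit (Cga) and a specific beta subunit (Tshb). Thyrotropin-releasing hormone from the hypothalamus stimulates them through the receptor Trhr, and thyroid hormone, activated in the cell by the deiodinase Dio2, restrains them. Their lineage depends on the transcription factors POU1F1 and GATA2. Because recombination by Cre is permanent, the YFP label marks cells in which the driver is active and those in which it was active earlier.

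The series was made to describe long non-coding RNAs (lncRNAs) in pituitary development and cell types, and the P7 pair gives the contrast of labelled cells with the whole gland in the first postnatal week. Relative depth, read from the ratio of deposited coverage to FPKM, was 3.08 in P7 Tshbcre sorted cells and 3.24 in P7 whole glands. Assembled transcripts without a gene name numbered 682159 in the sorted library and 273226 in the whole library, and those shorter than 200 nt were 86.2% of them in the sorted library and 47.8% in the whole library. FPKM were divided by 1 factor per library, 0.976 for the sorted and 1.42 for the whole library, and are called scaled FPKM. Differences are of log2(scaled FPKM + 1), sorted minus whole, which understates the difference of low genes, and the folds quoted are on the same scale. Genes are called apart where the fold was 4 or more and the larger of the 2 values reached 1 scaled FPKM.

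The 5 genes that mark the labelled cells were all higher in P7 Tshbcre sorted cells. Tshb was at 3001 scaled FPKM in sorted cells, against 61.0 in whole glands, a 48.4-fold difference (log2 difference 5.60). No other gene of the 14394 above 0 in both libraries had a larger log2 difference. The deposited bounds, here summed over the transcripts of a gene and scaled, reflect read counting inside a single library and no variation between animals. For Tshb they were 2874 to 3127 in sorted cells and 57.3 to 65.0 in whole glands. Tshb (chr3:102684621-102718175, mm39) was carried by the RefSeq transcript NM_001165940.1 of 557 nt, which held 98.2% of its value in sorted cells and all of it in whole glands. The rest in sorted cells was in the predicted transcript XM_017319535.3, listed at 0 in whole glands.

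Cga (chr4:34893779-34907374, mm39) was at 9593 scaled FPKM in sorted cells, against 749 in whole glands, a 12.8-fold difference. It had the highest level of all protein-coding genes in the sorted library. Its predicted transcript XM_006537586.2 held 13.3% of the sorted value and was listed at 0 in whole glands, and NM_009889.2 held the rest. Dio2 (chr12:90691326-90705812, mm39) was at 164 scaled FPKM in sorted cells, against 9.59 in whole glands (15.6-fold). Trhr (chr15:44059314-44099308, mm39) was at 14.6 scaled FPKM in sorted cells and 1.36 in whole glands (6.64-fold). Assembled transcripts in the locus brought Trhr to 34.6 in sorted cells and left 1.36 in whole glands. Cck (chr9:121318890-121324760, mm39), which encodes the peptide cholecystokinin, was at 23.9 scaled FPKM in sorted cells, against 0.341 in whole glands, where its bounds were 0.127 to 0.626 (18.6-fold). The deposited bounds of the 2 libraries did not overlap for any of the 5 genes.

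**Figure D1:**
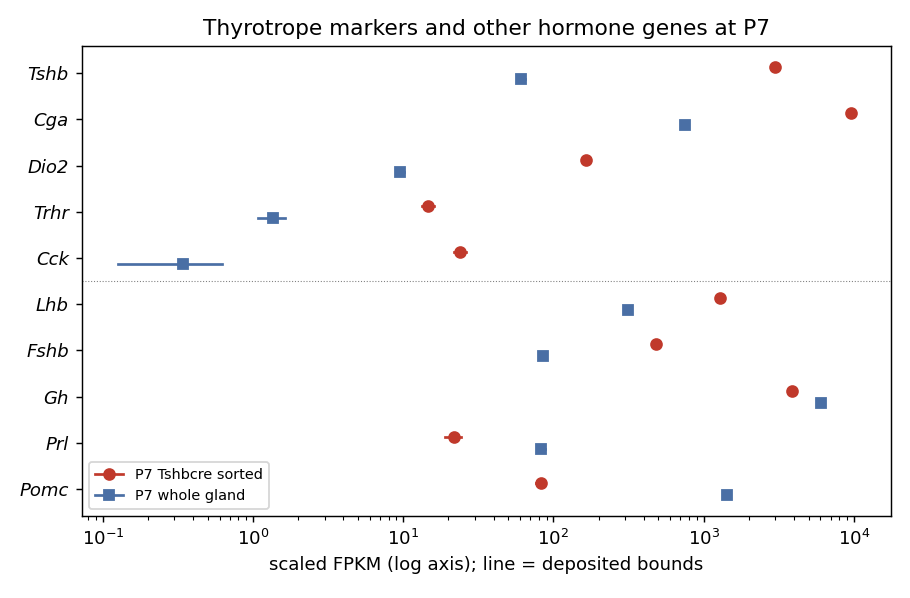
Scaled FPKM on a log axis of the 5 thyrotrope markers (above the dotted line) and of other pituitary hormone genes in P7 Tshbcre sorted cells (circles) and P7 whole glands (squares), 1 library each, with the deposited bounds as lines. All 5 markers, Lhb and Fshb lie to the right in sorted cells, and Gh, Prl and Pomc lie to the left.

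RefSeq start sites of 4 of the 5 markers have a promoter sequence (GRCm38.p6, 250 bases before to 50 after the start), and these are shown because their genes had among the largest differences. The coordinates are of that older build and differ from those of the files: Tshb chr3:102782665-102782964 and Dio2 chr12:90738989-90739288 and Cck chr9:121495645-121495944 on the minus strand, and Cga chr4:34893529-34893828 on the plus strand. Capitals mark matches to 4 short motifs. The motif ATGNATA is of the type bound by POU1F1. The motif TAATCC is of the type bound by PITX factors. The motif GATAA is of the type bound by the GATA2 family. All of these were searched on both strands. The core promoter motif TATAAA was searched on the sense strand only. Each sequence is written 5′ to 3′ in the direction of its gene.
Tshb: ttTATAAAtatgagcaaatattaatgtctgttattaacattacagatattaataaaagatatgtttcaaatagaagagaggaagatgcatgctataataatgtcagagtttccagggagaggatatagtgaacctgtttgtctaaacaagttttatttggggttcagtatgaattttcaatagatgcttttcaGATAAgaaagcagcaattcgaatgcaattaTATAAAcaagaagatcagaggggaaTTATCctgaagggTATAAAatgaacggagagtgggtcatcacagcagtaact
Cga: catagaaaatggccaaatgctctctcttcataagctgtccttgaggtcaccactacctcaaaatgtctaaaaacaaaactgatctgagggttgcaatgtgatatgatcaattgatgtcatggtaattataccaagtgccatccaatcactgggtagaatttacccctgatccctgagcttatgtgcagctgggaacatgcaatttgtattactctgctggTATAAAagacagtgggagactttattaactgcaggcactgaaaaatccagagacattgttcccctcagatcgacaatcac
Dio2: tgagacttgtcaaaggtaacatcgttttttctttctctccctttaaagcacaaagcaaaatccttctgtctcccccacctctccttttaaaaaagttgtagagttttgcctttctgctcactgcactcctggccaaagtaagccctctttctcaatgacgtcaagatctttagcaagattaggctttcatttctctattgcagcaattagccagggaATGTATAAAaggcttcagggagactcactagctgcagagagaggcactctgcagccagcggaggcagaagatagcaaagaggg
Cck: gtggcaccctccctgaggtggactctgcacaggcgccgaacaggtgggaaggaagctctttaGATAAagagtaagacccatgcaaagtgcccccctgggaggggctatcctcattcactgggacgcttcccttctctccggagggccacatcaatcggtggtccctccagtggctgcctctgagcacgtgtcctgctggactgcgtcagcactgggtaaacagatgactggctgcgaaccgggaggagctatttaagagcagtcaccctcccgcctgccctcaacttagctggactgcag

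TATAAA lay at -27 in the Tshb promoter, counted from the start site, and at -30 in both Cga and Dio2. The Tshb window held it again at -248 and at 12. The same letters were in 8.28% of 32544 promoters of that length. GATAA was in Tshb at -57 and, on the opposite strand, at -2, and in Cck at -188, against 25.3% of all promoters. ATGNATA was in Dio2 alone of the 4, at -33, where it overlaps the TATAAA, and was in 8.74% of all promoters. TAATCC was in none of the 4 and in 7.06% of all promoters. These matches describe letters in the windows and were not tested as binding sites.

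Hormone genes of other cell types were not uniformly lower in the sorted cells. Lhb and Fshb, the beta subunits of the gonadotropins, were higher: Lhb was at 1278 scaled FPKM in sorted cells, against 312 in whole glands (4.09-fold), and Fshb was at 482 in sorted cells, against 85.1 in whole glands (5.60-fold). Gh, growth hormone, was at 3870 scaled FPKM in sorted cells and 6031 in whole glands, a log2 difference of -0.64, and came next after Cga among protein-coding genes in the sorted library. Prl, prolactin, was at 21.7 in sorted cells and 82.5 in whole glands (log2 difference -1.88). Pomc, the precursor of corticotropin and melanocyte-stimulating hormone, was at 82.6 in sorted cells, against 1428 in whole glands, 17.1-fold lower. Of the summed FPKM of these 7 hormone genes, Cga made up 52.3% in sorted cells and 8.56% in whole glands. Tshb made up 16.4% in sorted cells and 0.697% in whole glands, and Gh made up 21.1% in sorted cells and 68.9% in whole glands. In such bulk samples, fewer cells of a type and less RNA per cell cannot be told apart. Without scaling, the differences of Lhb (log2 1.49) and Fshb (1.95) were under 4-fold and that of Prl (-2.42) was over it.

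Over all genes above 0 in both libraries, 137 of 14394 were at least 4-fold higher in sorted cells (0.952%) and 317 were at least 4-fold lower (2.2%). The higher genes were 30.2% of those apart. This share was 12.1% with FPKM as deposited, when 89 genes were higher and 648 lower. When zeros were admitted, 532 of 16355 were higher (3.25%) and 1000 were lower (6.11%). Of these, 395 of the higher were listed at 0 in whole glands and 683 of the lower were listed at 0 in sorted cells. A 0 in these tables can be a failed estimate, so the counts without zeros are used below. Deposited bounds did not overlap for 120 of the 137 higher and 314 of the 317 lower genes. When unnamed assembled transcripts of at least 200 nt were credited to the single named gene of their locus, 106 of the 137 and 245 of the 317 were still apart in the same direction. Protein-coding genes made up 64 of the higher and 303 of the lower, out of 10946 (0.585% and 2.77%). These shares are the background for the counts of protein-coding list members apart given below.

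**Figure D2:**
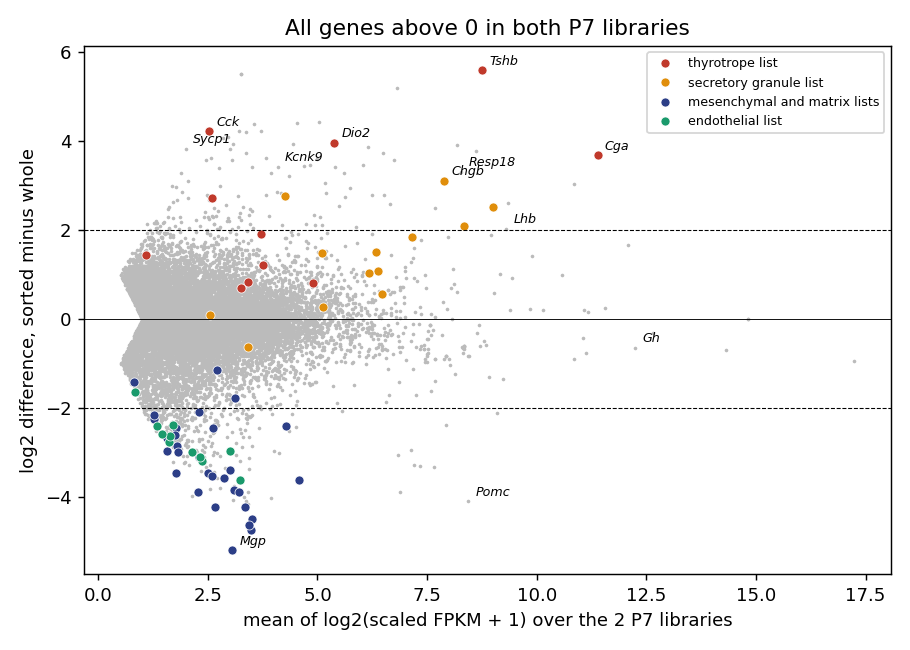
Log2 difference, sorted minus whole, against the mean log2(scaled FPKM + 1) of the 2 libraries for the 14394 genes above 0 in both; dashed lines mark 4-fold. The thyrotrope list lies above 0 in all of its 11 members, and the mesenchymal, matrix and endothelial lists lie below 0.

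The thyrotrope list held 11 genes, all of them above 0 and on the higher side in P7 Tshbcre sorted cells, against a median log2 difference of 0.01 over all genes compared. Their median was 1.92. At least 4-fold higher were 5, the markers described above, which are the genes that define the label. Like the other lists, this one was chosen with earlier results of these data known, so its median is no independent check of the label. Rxrg, a retinoid X receptor that pairs with thyroid hormone receptors, was at 24.5 scaled FPKM in sorted cells and 5.73 in whole glands (log2 difference 1.92). Gata2 was at 19.6 in sorted cells, against 7.84 in whole glands, and at 54.7 in sorted cells and 7.84 in whole glands with assembled transcripts. Isl1, a LIM homeodomain factor, was at 13.4 in sorted cells, against 7.02 in whole glands, and at 46.5 in sorted cells and 7.02 in whole glands with assembled transcripts. Both were at least 4-fold higher on that count. Pou1f1 was at 38.3 in sorted cells and 21.4 in whole glands. With assembled transcripts Pou1f1 rose in both libraries, to 65.3 in sorted cells. Thrb, the thyroid hormone receptor beta, was at 11.2 in sorted cells and 6.53 in whole glands, and Nmb, the peptide neuromedin B, at 2.51 in sorted cells and 0.285 in whole glands.

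The gonadotrope list, which shares Cga, Gata2 and Isl1 with the thyrotrope list, had a median of 1.03 over 10 genes compared, with 3 at least 4-fold higher (Lhb, Fshb and Cga) and none lower. Tgfbr3l, a co-receptor known in gonadotropes, was at 146 scaled FPKM in sorted cells, against 38.2 in whole glands (log2 difference 1.91), and shares its locus with another gene. Gnrhr, which encodes the gonadotropin-releasing hormone receptor, stood at 8.91 in sorted cells and 9.17 in whole glands. The gonadotrope factors Nr5a1 and Foxl2 were listed at 0 in sorted cells, and in whole glands were at 6.09 (Nr5a1) and 6.24 (Foxl2). With assembled transcripts, Nr5a1 was at 11.0 in sorted cells and 12.7 in whole glands, and Foxl2 was at 18.8 in sorted cells and 9.23 in whole glands. Both loci thus held assembled transcripts in the sorted library. Foxl2os, a lncRNA on the strand opposite to Foxl2, was at 25.4 in sorted cells, against 3.92 in whole glands (log2 difference 2.42). It was under 4-fold with assembled transcripts (1.62) and with FPKM as deposited (1.97), and, without strand, reads of Foxl2 and Foxl2os cannot be told apart.

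Lists of the other endocrine cells had lower medians. The somatotrope list had a median of -0.58 over 5 genes, none apart. Its receptor for growth hormone-releasing hormone, Ghrhr, was listed at 0 in sorted cells and at 19.3 in whole glands, and at 33.4 in sorted cells and 38.0 in whole glands with assembled transcripts. The lactotrope list had a median of -0.18, which was 0.037 with libraries scaled to equal sums, and 1 of 5 genes was lower: Drd2, the dopamine receptor, at 0.484 scaled FPKM in sorted cells and 5.52 in whole glands. The corticotrope list had a median of -1.47 and 2 of 5 genes lower, Pomc and the factor Tbx19, which was at 0.61 in sorted cells and 9.65 in whole glands. The melanotrope list had a median of -2.73 and 3 of 5 lower, the third being Oacyl at 2.07 in sorted cells and 24.6 in whole glands. Pax7, the factor that defines melanotropes, was at 0.062 in sorted cells and 2.42 in whole glands.

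Markers of non-endocrine cells were on the lower side in the sorted cells for each of the genes compared. Mesenchymal and pericyte genes had a median of -3.46 and 10 of 11 were at least 4-fold lower, while their summed level over 12 genes was 13.8 scaled FPKM in sorted cells, against 320 in whole glands. Collagen genes Col1a1 (1.16 in sorted cells, 57.0 in whole glands) and Col3a1 (1.39 in sorted cells and 52.6 in whole glands), decorin Dcn (1.17 in sorted cells and 52.9 in whole glands) and matrix Gla protein Mgp (0.37 in sorted cells and 49.1 in whole glands) led the list. For endothelial genes the median was -2.75 and 10 of 11 were lower, and their sum over 13 genes was 6.61 in sorted cells and 141 in whole glands. Plvap, a protein of fenestrated endothelium, was at 1.68 in sorted cells and 31.7 in whole glands, and Cdh5 at 0.696 in sorted cells and 14.4 in whole glands. Kdr and Tek, receptors for vascular growth factors, were listed at 0 in sorted cells, and in whole glands were at 11.9 (Kdr) and 4.31 (Tek).

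Stem and folliculostellate markers had a median of -1.95 and 5 of 13 were lower. Sox2, the progenitor factor, was at 0.908 scaled FPKM in sorted cells, against 14.1 in whole glands, and Hes1, a Notch target, was at 1.57 in sorted cells and 14.0 in whole glands. The C1q genes of macrophages (C1qa, C1qb and C1qc) and Lyz2 were the 4 of 8 immune genes apart, with a list median of -2.03. Haemoglobin genes were the 4 of 6 erythroid genes apart: Hbb-bs was at 62.3 in sorted cells, against 636 in whole glands. Those 4 genes share loci and near-identical copies, so their separate values are uncertain. The posterior lobe list had a median of -2.01 and 2 of 4 genes lower, Scn7a (0.638 in sorted cells, 12.3 in whole glands) and Col25a1 (0.254 in sorted cells and 7.01 in whole glands). Only 1 of 5 Schwann and glial genes, Mbp, could be compared, at 2.50 in sorted cells and 3.71 in whole glands. The mix of cells in each library was not measured.

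**Figure D3:**
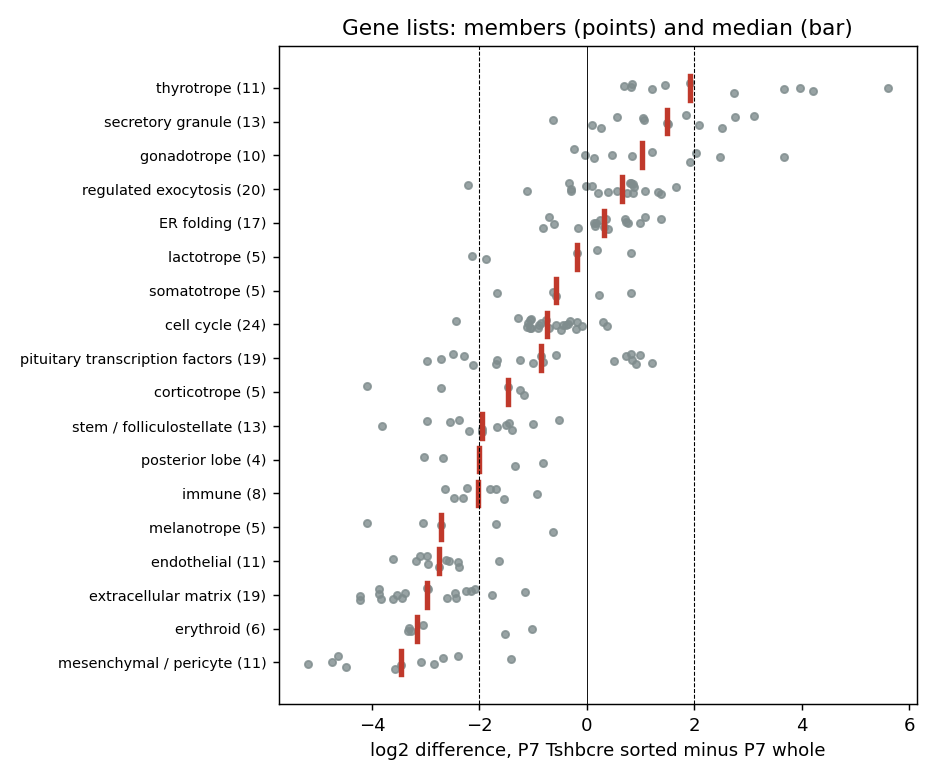
Log2 difference, sorted minus whole, of the members of 18 gene lists (points; number compared in brackets) with each list's median (bar); dashed lines mark 4-fold. Lists run from the mesenchymal genes at -3.46 at the bottom to the thyrotrope genes at 1.92 at the top; the lactotrope median changes sign with equal sums and the ER folding median with FPKM as deposited.

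In the regulated secretory pathway, which packs and cleaves prohormones, some granule genes were higher in sorted cells. The secretory granule list of 13 genes had a median of 1.48, with 12 on the higher side and 4 at least 4-fold higher (Chgb, Pcsk1, Scg2 and Chga). With FPKM as deposited the median was 0.96 and 2 were at least 4-fold higher, since Scg2 (log2 1.97) and Chga (1.55) were then under 4-fold. Chgb, chromogranin B, was at 694 scaled FPKM in sorted cells, against 79.9 in whole glands (8.60-fold). Scg2, secretogranin II, was at 1228 in sorted cells and 214 in whole glands, and Chga was at 663 in sorted cells and 155 in whole glands. The prohormone convertase Pcsk1 was at 48.9 in sorted cells, against 6.38 in whole glands (6.76-fold), while Pcsk2 was at 7.66 in sorted cells and 12.3 in whole glands. Genes of the release machinery differed less: the median of 20 exocytosis genes was 0.66, with 0 at least 4-fold higher and 1 at least 4-fold lower, and with assembled transcripts 0 were apart. Snap25 was at 68.0 in sorted cells and 26.7 in whole glands. Chaperones of the endoplasmic reticulum had a median of 0.32 over 17 genes, none apart, which was -0.21 with FPKM as deposited. Genes of glycan addition to thyrotropin had a median of 0.40 over 4 genes, none apart, and -0.078 with assembled transcripts.

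Genes that carry signals into the thyrotrope were mixed. Among 9 hypothalamic receptors compared, Trhr was the gene higher and Drd2 the gene lower, with a median of -0.04 that was 0.18 with equal sums. Sstr2, a somatostatin receptor, was at 2.22 scaled FPKM in sorted cells and 0.409 in whole glands. Among 13 genes of the Gq cascade downstream of Trhr, Prkcb, a protein kinase C, was at 11.5 in sorted cells and 1.35 in whole glands. With assembled transcripts it was at 11.5 in sorted cells and 5.29 in whole glands, no longer 4-fold apart. The regulator Rgs4 was at 60.8 in sorted cells and 20.5 in whole glands. The median of that list was -0.01 and was 0.43 with assembled transcripts. Thyroid hormone genes had a median of -0.22 over 14, with Dio2 the gene apart. The corepressor Ncor1 was at 42.6 in sorted cells and 16.5 in whole glands.

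Potassium channels had a median of 0.27 over 18 genes, which was -0.050 with FPKM as deposited. Kcnk9, an acid-sensitive leak channel, was the gene apart, at 54.9 scaled FPKM in sorted cells, against 4.22 in whole glands (10.7-fold). Its relative Kcnk3 was at 17.2 in sorted cells and 4.42 in whole glands (log2 difference 1.75). Calcium, sodium and HCN channels had a median of 0.13 over 16 genes, which was -0.21 with FPKM as deposited. In that list the sodium channel Scn3a was at 17.7 in sorted cells and 3.49 in whole glands, and the T-type calcium channel Cacna1g was at 0.355 in sorted cells and 5.35 in whole glands. With assembled transcripts, Scn3a was at 17.7 in sorted cells and 6.21 in whole glands, under 4-fold. Neuropeptide genes had a median of 0.16 over 7, which was -0.33 with FPKM as deposited, and Cck was the gene apart. Cartpt was at 8.78 in sorted cells and 7.75 in whole glands.

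Transcription factors of the pituitary were mixed. Of 19 compared, 5 were at least 4-fold lower and none higher, with a median of -0.85. Lower were Sox2, Tbx19, Lhx3 (3.32 scaled FPKM in sorted cells, 23.3 in whole glands), Six3 (1.96 in sorted cells and 13.5 in whole glands) and Eya1 (3.91 in sorted cells and 20.5 in whole glands). With assembled transcripts 3 of 22 were lower and 2 higher, and the median was -0.24. Lhx3 was then at 26.7 in sorted cells and 23.3 in whole glands, and Eya1 at 16.0 in sorted cells and 20.5 in whole glands, while Sox2, Tbx19 and Six3 did not change. Pitx1 was at 56.8 in sorted cells and 28.1 in whole glands.

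**Figure D4:**
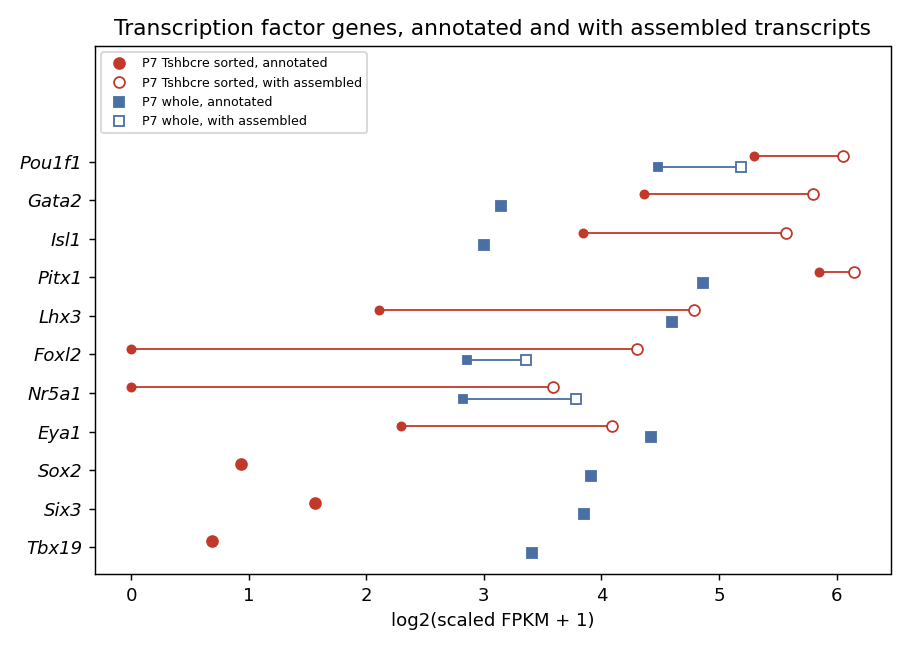
Log2(scaled FPKM + 1) of 11 transcription factor genes in P7 Tshbcre sorted cells (circles) and P7 whole glands (squares), from annotated transcripts (filled) and with assembled transcripts added (open; where none were added the filled symbol covers it). Adding them moves Pou1f1, Gata2, Isl1, Lhx3, Foxl2, Nr5a1 and Eya1 in sorted cells, and leaves Sox2, Six3 and Tbx19 in place.

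Cell cycle genes were on the lower side in 22 of 24, with a median of -0.74 and 1 at least 4-fold lower. Of all protein-coding genes compared, 45.5% were on the higher side and 2.77% were at least 4-fold lower, so 1 gene apart is near the background. Mki67, a marker of cycling cells, was at 4.96 scaled FPKM in sorted cells and 10.1 in whole glands, and Top2a was at 4.61 in sorted cells and 10.5 in whole glands. Mcm6, the gene apart, was at 0.337 in sorted cells and 6.24 in whole glands, and at 2.11 in sorted cells and 6.24 in whole glands with assembled transcripts. Extracellular matrix genes had a median of -2.99 with 17 of 19 lower (15 of 20 with assembled transcripts), among them Sparc, at 5.81 in sorted cells and 82.5 in whole glands. Another 1 matrix gene was listed at 0 in whole glands. It was at least 4-fold higher in sorted cells when zeros were admitted, but not with assembled transcripts. Of 10 genes of the insulin-like growth factor axis 4 were lower (3 with assembled transcripts, when Igfbp2 had a log2 difference of -1.96), with Igfbp4 at 1.34 in sorted cells and 51.7 in whole glands, while Igfbp5 was at 207 in sorted cells and 114 in whole glands. Notch genes had a median of -1.14 with 2 of 11 lower, Notch2 (1.77 in sorted cells, 13.1 in whole glands) and Hes1. The BMP list had a median of -0.74 over 12 with none apart.

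Immediate early and heat shock genes, which respond to dispersal and sorting in many tissues, had a median of -0.13 over 20 genes, and 0.10 with equal sums. Fos was at 91.9 scaled FPKM in sorted cells and 116 in whole glands, and Egr1 was at 128 in sorted cells and 124 in whole glands. Ier3 was the gene apart, at 0.671 in sorted cells and 8.42 in whole glands. Imprinted genes had a median of 0.046 over 13, which was -0.49 with FPKM as deposited; H19, Igf2 and Grb10 were lower. With assembled transcripts Grb10 was under 4-fold, at 4.98 in sorted cells and 14.8 in whole glands. Igf2 was at 0.872 in sorted cells and 13.3 in whole glands, and Dlk1, a Delta-like membrane protein, was at 399 in sorted cells and 182 in whole glands. Of the X- and Y-linked genes used to compare the pools, Xist was at 62.6 in sorted cells and 17.0 in whole glands, and Ddx3y was at 2.09 in sorted cells and 2.12 in whole glands. The part of the makeup of the pools in the differences was not tested.

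Among protein-coding genes at 10 scaled FPKM or more in the higher library, 15 were named as the highest differences that stayed 4-fold apart under each scaling and with assembled transcripts. Besides the 5 markers, Kcnk9, Chgb and Pcsk1, they were Prss28, Sycp1, Tagln3, Resp18, Wfdc17, Ces1d and Irs4. Resp18, a protein of endocrine secretory granules, was at 977 scaled FPKM in sorted cells, against 97.7 in whole glands (9.91-fold). Irs4, an insulin receptor substrate, was at 128 in sorted cells and 18.2 in whole glands. Prss28, a serine protease, was at 28.4 in sorted cells and 0.742 in whole glands, and Tagln3, an actin-associated protein of neurons, was at 17.8 in sorted cells and 0.579 in whole glands. Ces1d, a carboxylesterase, was at 18.3 in sorted cells and 1.43 in whole glands. The 15 named lower genes were Mgp, Col1a1, Dcn, Igfbp4, Col3a1, Nid1, Col4a1, Ifitm3, Pomc, Gpc3, Rbpms, Cxcl12, Col15a1, Eln and Col4a2. Pomc is the hormone gene among them, and the collagens, Mgp, Dcn, Nid1 and Eln belong to the mesenchymal or matrix lists. The chemokine Cxcl12 was at 0.109 in sorted cells and 16.4 in whole glands.

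Sycp1, a gene of the meiotic synaptonemal complex, was at 14.0 scaled FPKM in sorted cells, against 0.0549 in whole glands. It lies on chromosome 3 (102725815-102843416, mm39), 7639 bp from the annotated span of Tshb. On that side the span is set by predicted Tshb transcripts listed at 0 in both libraries. The transcript that carried the Tshb value, NM_001165940.1, ends at 102690030 and so lies farther from Sycp1. Tspan2, a tetraspanin gene 4994 bp to the other side of Tshb (102642086-102679626), was looked at for its position after the values were seen. Tspan2 was at 40.0 in sorted cells, a log2 difference of 1.90 from whole glands, and at 40.0 in sorted cells and 20.2 in whole glands with assembled transcripts. The next protein-coding genes beyond Sycp1, Nr1h5 (0.386 in sorted cells and 0.0534 in whole glands) and Sike1 (2.45 in sorted cells and 3.79 in whole glands), were low in both libraries. In the adult pair, Sycp1 was at 15.1 in sorted cells and listed at 0 in the whole gland. Both genes are on the minus strand, and Sycp1 lies upstream of Tshb. The source of the Sycp1 reads was not tested.

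Long non-coding RNA genes that reached 1 scaled FPKM were mostly on the higher side in sorted cells. Most lncRNAs are low, and a low gene passes this minimum through the library where it is higher, so the share and the median describe the genes that passed and not lncRNAs at large. Of 778 compared, 684 (87.9%) were on the higher side and the median log2 difference was 0.69, against -0.07 for 10946 protein-coding genes, of which 45.5% were on the higher side. At least 4-fold higher were 15 lncRNA genes (1.93%) and lower were 2 (0.257%). With no minimum the median was 0.16 over 3775 lncRNA genes and -0.03 over 13855 protein-coding genes. The lncRNA median was 0.43 with FPKM as deposited and 0.80 with equal sums. With assembled transcripts 69 of 1190 lncRNA genes were at least 4-fold higher and 10 lower. In the adult pair the median of the lncRNAs above 0 in both libraries was 0.21. Genes that matched no annotation (203) had a median of 0.69. The share of short assembled fragments, given above, was also higher in the sorted library, and its part in the lncRNA values was not tested.

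Gm42186 (chr3:17171297-17193926, mm39) was the lncRNA with the highest level among those named by rule, at 1596 scaled FPKM in sorted cells, against 261 in whole glands (6.10-fold). Its bounds were wide, 1030 to 2161 in sorted cells and 76.3 to 445 in whole glands. Gm52011 was at 108 in sorted cells and 17.6 in whole glands, and 2.74 in adult sorted cells, and was listed at 0 in the adult whole gland. Gm48606 was at 17.4 in sorted cells and 2.10 in whole glands, and at 180 in sorted cells and 2.10 in whole glands with assembled transcripts. Snhg9, a host gene of a small nucleolar RNA, was at 20.9 in sorted cells (bounds 12.5 to 29.2) and 1.09 in whole glands (0 to 2.64). The others were LOC108168764, Gm33551, 9630013D21Rik and 2010106C02Rik, between 4.11 and 10.6 in sorted cells and between 0.147 and 0.373 in whole glands. In the adult pair Snhg9 was listed at 0 in sorted cells and at 1.69 in the whole gland. LOC108168764 was at 0.562 in adult sorted cells and 4.27 in the adult whole gland. 2010106C02Rik was listed at 0 in both adult libraries, and the remaining named higher lncRNAs were higher in adult sorted cells. Lower at P7 were H19 (2.05 in sorted cells, 18.2 in whole glands) and Snhg3 (1.75 in sorted cells and 11.6 in whole glands), both of which share a locus with other genes. Of 14 well-known lncRNAs compared, H19 was lower and Foxl2os was higher on annotated transcripts, a call not kept with assembled transcripts or FPKM as deposited. Malat1 was at 1567 in sorted cells and 585 in whole glands.

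Small RNA genes took a large share of the higher calls. Small nucleolar, small nuclear, micro and guide RNA genes were 43 of the 137 higher and 12 of the 317 lower, out of 318 compared. Small nucleolar RNA genes alone were 27 of the higher and 10 of the lower, out of 89 (30.3% and 11.2%). FPKM of such short genes rest on few positions, and near-identical copies share reads. Some protein-coding genes had a 0 in one library, 20 scaled FPKM or more in the other and no assembled transcript to fill the gap. Of these, Myl6 (37.4), Ndufb1 (26.8) and Tmem179b (20.3) had values in sorted cells only. Mdk (99.3), Pcdhgc3 (85.6), Slirp (29.0) and Igfbp7 (24.6) had values in whole glands only. In the adult pair Slirp went the other way, at 38.7 in sorted cells and listed at 0 in the whole gland. Pcdhgc3 and Tmem179b share a locus with other genes. Mdk, Ndufb1 and Tmem179b were also listed at 0 in both adult libraries, so no fold is given for these genes.

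The adult pair, which shares no library with the P7 pair, gave the same order for the markers. Tshb was at 1075 scaled FPKM in adult sorted cells, against 33.1 in the adult whole gland, and Cga at 6546 in adult sorted cells, against 805 in the adult whole gland. Dio2 was at 40.4 in adult sorted cells and 3.87 in the adult whole gland. Trhr was at 10.9 in adult sorted cells and 0.790 in the adult whole gland, and Cck at 20.7 in adult sorted cells and 0.411 in the adult whole gland. Over all 13321 genes comparable at both ages, 59 were at least 4-fold higher in adult sorted cells and 90 were at least 4-fold lower. Of the 93 genes higher at P7 that could be compared in the adults, 3 were at least 4-fold lower there. Also at least 4-fold higher in the adults were 20, which is 21.5% of the P7 genes and 33.9% of the 59 adult genes. Besides the markers they include Lhb, Fshb, Scg2, Chga, Foxl2os, Nell1, Spp1 and Col24a1. Of these 20, 11 were at least 4-fold higher at P7 with FPKM as deposited and 16 with assembled transcripts. Of 301 lower genes, 2 were at least 4-fold higher in the adults. Another 41 were also lower in the adults, 13.6% of the P7 genes and 45.6% of the 90 adult genes. These 41 include Pomc, Tbx19, Drd2, Mgp, Col1a1 and Plvap.

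List medians were farther from 0 at P7 than in the adults for several non-endocrine lists. The matrix median was -2.99 at P7 and -1.17 in the adults, the mesenchymal median -3.46 at P7 and -2.05 in the adults, the stem median -1.95 at P7 and -0.77 in the adults, and the immune median -2.03 at P7 and -0.59 in the adults. Thyrotrope and gonadotrope medians were nearer 0 at P7 (thyrotrope 1.92, gonadotrope 1.03) than in the adults (thyrotrope 2.52, gonadotrope 2.09). Adult medians cover only the members compared at P7 that were above 0 in both adult libraries. For the thyrotrope list these were 10 of 11, so its 2 medians are not over the same genes. The secretory granule median was 1.48 at P7 and 0.49 in the adults. The 7 somatotrope genes, Gh among them, summed to only 101 scaled FPKM in the adult whole gland, against 14849 in adult sorted cells. In P7 whole glands they summed to 6087, and the reason for the low adult sum was not tested. With 1 library a group these differences between ages were not tested, and the adult library pooled 42 glands while the adult whole library was 1 gland.

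**Figure D5:**
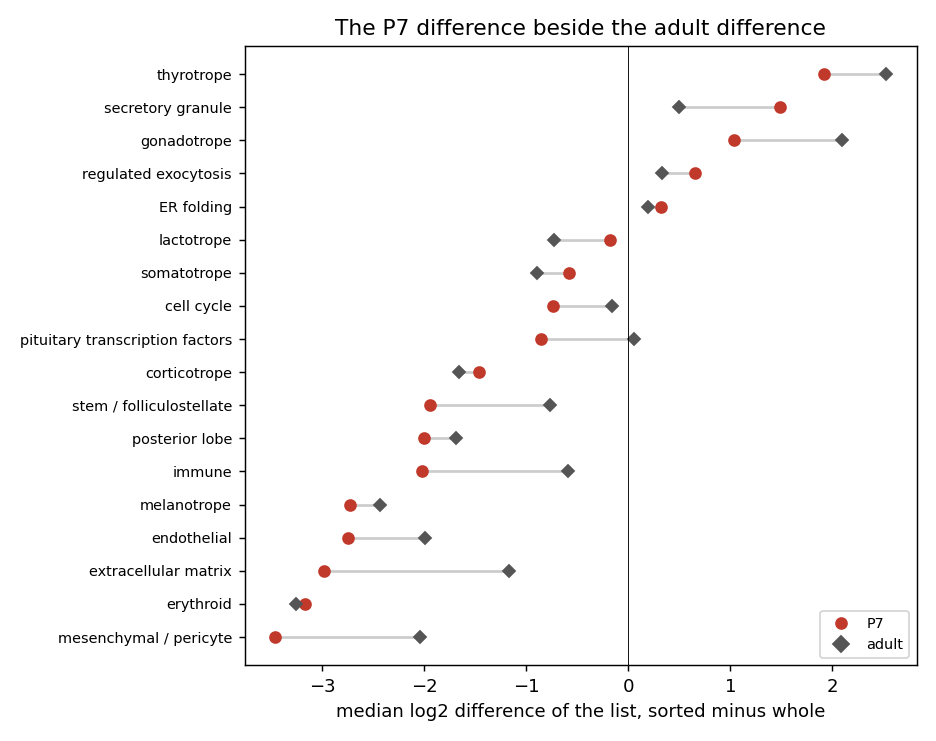
Median log2 difference, sorted minus whole, of 18 gene lists at P7 (circles) and in the adults (diamonds), 1 library per group at each age. The matrix list lies at -2.99 at P7 and -1.17 in the adults, and the thyrotrope list at 1.92 at P7 and 2.52 in the adults. Adult medians cover members above 0 in both adult libraries, fewer than at P7 for some lists (10 of 11 thyrotrope, 4 of 5 somatotrope and 4 of 6 erythroid genes).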

How the data were processed

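RNA of P7 pituitary was profiled by RNA-seq after ribosomal RNA depletion, from 250 ng of RNA per the labels' protocols, in 1 Tshbcre sorted and 1 whole-gland library. The submitters' processing notes name FastQC, Bowtie2, Cufflinks and mm39 but no version. The deposited isoform tables give the authors' FPKM per transcript, its bounds, a status and a coverage signal, which per the file headers are Cufflinks columns. Coverage was a constant multiple of FPKM within a file, and that constant served as relative depth. The number of reads and the use of strand are not given in the sources used here.

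Transcript FPKM were summed per gene name. The deposited bounds of transcripts were summed in the same way, so the bounds of a gene are sums of transcript limits and not an interval estimated for the gene. Genes with a failed status (21) were left out. Libraries were scaled by the median of ratios over 5808 genes that reach 1 FPKM in each of the 6 libraries. Assembled transcripts of at least 200 nt were added to a gene, as an alternative, where the locus held 1 named gene. Differences used a pseudocount of 1. Biotypes came from RefSeq tables (35527 genes by accession, 12931 by symbol, 2 by synonym, 1597 unmatched). Named genes were the markers, the members of 33 lists, the 15 highest and 15 lowest protein-coding genes and up to 8 lncRNAs per direction that stayed apart under each scaling and with assembled transcripts, and genes with a 0 in one P7 library and at least 20 in the other. Members and lists were chosen with earlier results of these data known. The calling step was tested on simulated data, which checks the computation and not any difference reported here. Values were computed in Python 3.11.15 with pandas 2.3.3 and NumPy 2.4.6. Alternatives were other scalings, pseudocounts, minimums, zeros and assembled transcripts. A few list members are counted in their lists but not reported here by name.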

Additional observations from a re-analysis of the deposited data

Results flagged for a closer look

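Eya1, a transcriptional co-activator gene, was flagged because its difference had opposite signs at the 2 ages. It was at 3.91 scaled FPKM in P7 sorted cells and 20.5 in P7 whole glands, a log2 difference of -2.13. In the adults it was at 14.0 in sorted cells and 2.67 in the whole gland, a log2 difference of 2.03. With assembled transcripts the P7 values were 16.0 in sorted cells and 20.5 in whole glands. The difference between the ages was not tested.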

How the results depend on the processing

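Each choice was changed alone. Over all genes the median log2 ratio was 0.027 in the main scaling, -0.52 with FPKM as deposited and 0.26 with equal sums, so directions of small list medians follow the scaling. The higher genes numbered 89 as deposited, 560 with a pseudocount of 0.1, 256 with assembled transcripts and 532 with zeros, against 137. The lower genes numbered 648, 930 and 1000 as deposited, with a pseudocount of 0.1 and with zeros, against 317. The other 11 of 18 alternatives for these counts lay within 1.5 times. All 40 genes named by rank kept their direction and their 4-fold call under the 5 alternatives run for them. That outcome was fixed in advance and is no check. The naming rule required it of all but the pseudocount, and a smaller pseudocount can only widen a difference. List medians changed sign with FPKM as deposited for calcium and sodium channels (-0.21), potassium channels (-0.050), neuropeptides (-0.33), ER folding (-0.21), imprinted genes (-0.49) and X- and Y-linked genes (-0.35). With equal sums they did for lactotrope (0.037), hypothalamic receptor (0.18), Gq (0.21) and immediate early genes (0.10). With assembled transcripts they did for glycan enzymes (-0.078), Gq (0.43), neuropeptides (-0.021) and immediate early genes (0.055). A minimum of 5 did so for hypothalamic receptors (0.29) and Gq (0.80), no minimum for neuropeptides (-0.14), and zeros for imprinted genes (-0.17) and X- and Y-linked genes (-0.015). The other alternatives of the 32 lists with at least 3 genes compared (234 with the same sign and side of 4-fold, 3 with the same sign) did not change sign. The Schwann and glial list, with 1 gene compared, was left out of them: its median was -0.43, and 0.11 over 3 genes with assembled transcripts. Of 85 list members apart, 11 were not apart with assembled transcripts, 6 with FPKM as deposited and 2 with equal sums. No paired analysis was possible because each group is 1 library, and no replicate could be left out. Depth limits low genes, and intervals cover counting within a library only.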
